A study of Mus musculus with 8 samples.

Results

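The synaptic vesicle cycle was examined through 36 mRNAs that encode its release and recycling machinery, from calcium sensors and SNARE proteins to the coat proteins that retrieve vesicle membrane. The genes were taken by name from the probes with RefSeq mRNA accessions, and all 36 were among the 18198 mRNAs tested. RNA came from the thoracic cord of 8 female mice, each 8 weeks old and hybridised to its own 1-colour Agilent array. The strain was not given in the sources used here. There were 4 controls, called sham-operated in the design text and normal cord in their descriptions, and 4 mice with a spinal cord contusion, a bruise made by a blunt impact. The contusion titles all give day 3. In the description fields, however, replicates 1 to 4 stand at days 3, 4, 5 and 6, so the day is uncertain for 3 of the mice. A level below is a probe's log2 intensity minus the 75th percentile of its array, a difference is contusion minus control on that log2 scale ± the standard error from limma (n = 4 arrays per group), and a gene is called when the Benjamini-Hochberg adjusted p of limma's test over all features is under 0.05. "Fell" and "rose" are used of called genes only.

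At a chemical synapse, vesicles filled with transmitter dock at the active zone, are primed by RIM and Munc13 proteins, and fuse when calcium binds a synaptotagmin and the SNARE proteins of vesicle and plasma membrane zip together. The SNARE complex is then taken apart by NSF and its SNAP adaptors, and the membrane is retrieved by clathrin, dynamin and their partners and refilled by transporters driven by a proton pump. In the spinal cord these proteins sit in terminals of local interneurons, of descending axons and of sensory afferents while their mRNAs lie mostly in neuronal cell bodies.

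The vesicle cycle genes were lower in the contused cord almost as a block. Of the 36, 33 fell and none rose, against 25.3% of all mRNAs called lower and 25.8% called higher. The 36 genes were chosen with earlier results of these data known. Their median difference was -0.75, which leaves 59.5% of the control signal, while the median over all mRNAs was -0.001. In 34 of 36 genes every contusion array lay below every control array, which was so for 25.1% of all mRNAs. The falls were moderate and ranged from 0.26 for Stx1a to 1.11 for Vamp1. By size, 6 genes fell by more than 1 on the log2 scale, 23 by 0.5 to 1 and 4 by less, with standard errors of 0.07 to 0.18. The members not called were Syt4, Syn1 and Rab3b. In bulk tissue, fewer neurons, less of these mRNAs per neuron and a larger share of RNA from other cells cannot be told apart.

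**Figure D1:**
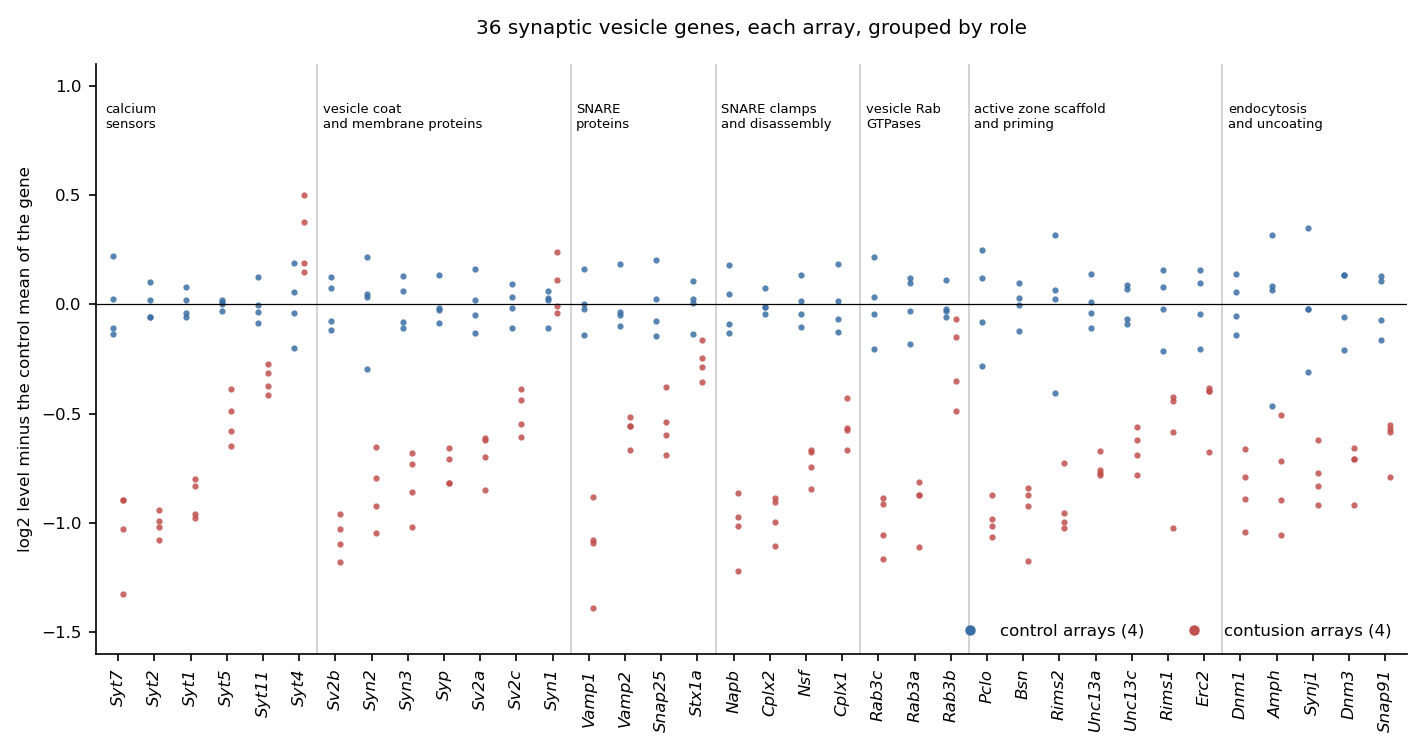
Level of each gene on each array minus that gene's control mean (log2 scale, vertical axis), with genes on the horizontal axis grouped by role, blue points for the 4 control arrays and red points for the 4 contusion arrays. In 34 of 36 genes the red points lie wholly below the blue ones; in Syt4 and Syn1 the groups overlap. On a scale relative to neuronal markers 14 genes were lower and 5 higher.

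Each contusion array showed the shift. The median deviation of the members from their control means was -0.67, -0.69, -0.77 and -0.88 in contusion replicates 1 to 4, against -0.11, 0.13, -0.05 and 0.03 in control replicates 1 to 4. All 4 contusion values lay below all 4 control values, and the lowest was replicate 4, described as day 6. Slide 1 held contusion replicate 1 with 3 controls and slide 2 held contusion replicates 2, 3 and 4 with 1 control. Described day 3 therefore cannot be told apart from slide. Described days 4, 5 and 6 all lay on slide 2 with 1 mouse each, so day and mouse cannot be told apart there. Within slide 1 the members' median difference was -0.73 and within slide 2 it was -0.63, and 34 of 36 genes were lower in both.

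Neuronal mRNAs outside the synapse moved with these genes, and phagocyte mRNAs moved the other way. Of 25 general neuronal markers 24 fell, with a median of -0.69, and only Gap43, a growth-associated protein of axons, rose, by 0.61 ± 0.10. The list's mean level was 6.28 to 6.51 in controls and 5.62 to 5.85 in contused cord, so its probes were bright in both groups. The number of neurons was not measured. The largest neuronal falls were those of Elavl4, an RNA-binding protein (-1.03 ± 0.14), and Ina, the neurofilament protein internexin (-1.02 ± 0.09). All 12 monocyte and macrophage markers rose, with a median of 3.31, led by Arg1, which encodes arginase (5.19 ± 0.90), and the scavenger receptor Msr1 (5.15 ± 0.57). Among microglial markers 7 of 10 rose, led by Fcrls (2.10 ± 0.36) and Olfml3 (1.95 ± 0.24). The part of these cell markers in the vesicle gene differences was not tested.

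Other tissue was uneven between arrays. Skeletal muscle markers had mean levels of 1.24, -0.60, 0.63 and 0.01 in control replicates 1 to 4 and 3.98, 2.35, -0.05 and -0.07 in contusion replicates 1 to 4. In that list 1 of 12 was called, Pvalb, which fell and is made by neurons too (named after its value was seen); the largest differences, of the myosins Myh4 (2.23 ± 1.66) and Myh1 (2.14 ± 1.32), were not. Without contusion replicates 1 and 2, 32 vesicle cycle genes were called lower and 0 higher. Neutrophil markers were highest in control replicates 1 and 3 among controls, at 1.13 and 1.36, and ranged over controls from -1.11 to 1.36 and over contusion arrays from -0.01 to 1.65; 1 of 11 fell and 3 rose. Without those 2 controls 33 vesicle cycle genes were lower. Of the remaining lists, 5 of 12 astrocyte markers fell and 4 rose, 4 of 12 oligodendrocyte markers fell and 1 rose, 1 of 7 precursor markers fell and 3 rose, 8 of 10 endothelial and 5 of 9 red cell markers rose, 2 of 10 Schwann cell markers rose, and 3 of 10 sensory ganglion markers fell and 2 rose. With slide as a block, 1 oligodendrocyte and 1 sensory ganglion marker fell, the fall of the precursor marker was no longer called, and those that rose were 2 for red cells, 1 for neutrophils and 1 for Schwann cells.

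Among the calcium sensors 5 of 6 synaptotagmins fell, with a median of -0.71. Syt1 and Syt2 are the sensors of fast, synchronous release, and they fell by 0.89 ± 0.07 and 1.01 ± 0.07. Syt7, a slower high-affinity sensor tied to asynchronous release and facilitation, had levels of 5.43, 5.76, 5.40 and 5.56 in control replicates 1 to 4 and 4.64, 4.64, 4.51 and 4.21 in contusion replicates 1 to 4. The groups were well apart, and the difference of -1.04 ± 0.12 (adjusted p 0.000444) was the third-largest fall of the set. Syt5 fell by 0.52 ± 0.07, and Syt11, a relative that does not bind calcium, fell by 0.35 ± 0.07, with control values of 7.46 to 7.67 against 7.13 to 7.27.

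Syt4 went against the other synaptotagmins. Syt4 is an atypical member found on dense-core vesicles and made in an activity-dependent way. Its levels were 5.57, 5.96, 5.73 and 5.83 in control replicates 1 to 4 and 6.15, 6.27, 5.96 and 5.92 in contusion replicates 1 to 4. The lowest contusion array lay below the highest control, and the difference of 0.30 ± 0.11 missed the threshold (adjusted p 0.0651). Its other 2 probes were brighter in every contusion array than in any control, by 0.35 ± 0.08 and 0.39 ± 0.08, and both were called in the fit of all probes (adjusted p 0.0084 and 0.00429). The gene was called higher when its probes were averaged (0.34, adjusted p 0.00975), with slide as a block (0.39, adjusted p 0.0381), in the authors' table (0.32, adjusted p 0.0199), and when control replicate 2 was left out (0.36, with an adjusted p of 0.0452). Syt4 was not called after normexp and quantile scaling (0.23, adjusted p 0.0666), with median scaling or with a replicate block. Nor was it called on leaving out any other single array (adjusted p up to 0.148).

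Of the 7 vesicle coat and membrane genes 6 fell, with a median of -0.75. Sv2b encodes a transporter-like glycoprotein of the vesicle membrane, and its levels were 5.15, 5.35, 5.11 and 5.30 in control replicates 1 to 4 and 4.13, 4.27, 4.20 and 4.05 in contusion replicates 1 to 4. The arrays of each group agreed closely, and the difference was -1.07 ± 0.08 (adjusted p 0.000126). Its relatives fell less: Sv2a, the target of the antiseizure drug levetiracetam, by 0.69 ± 0.09 and Sv2c by 0.50 ± 0.08. Syp, which encodes the abundant vesicle protein synaptophysin, fell by 0.75 ± 0.07. The synapsins tether vesicles in the reserve pool; Syn2 fell by 0.85 ± 0.13 and Syn3 by 0.82 ± 0.10.

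Syn1, the best known synapsin gene, gave 2 answers. The brightest of its 3 probes, which stands for the gene, had levels of 5.15, 5.29, 5.32 and 5.28 in control replicates 1 to 4 and 5.50, 5.37, 5.22 and 5.25 in contusion replicates 1 to 4. The groups overlapped and the difference was 0.07 ± 0.08 (adjusted p 0.522). The other 2 probes fell by 0.87 ± 0.10 and 0.90 ± 0.13 (adjusted p 0.000286 and 0.000987 in the fit of all probes), with no overlap between groups; they share 52 of their 60 bases and so are nearly 1 measurement. The mean of the 3 probes fell by 0.56 (adjusted p 0.00143). The first 30 bases of each 60-base probe are shown because they set the discordant probe apart: it is made almost wholly of G and C, 81.7% over its full length, against 43.3% and 45.0% in the others and 26.7% to 55.0% in every other probe kept for the 36 genes. The sequences are as the array files give them, with no part capitalised.
Syn1 probe 1 (difference 0.07): ccgccgcctccctcggccgccagccctggg
Syn1 probe 2 (difference -0.87): tctgacagctgtctttaaatatgcaaactc
Syn1 probe 3 (difference -0.90): ctgtctttaaatatgcaaactccacccatc

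Genes for tissue inhibitors of metalloproteinases lie inside the synapsin genes, and all 3 rose. In the RefSeq table Timp1 lies within Syn1, Timp4 within Syn2 and Timp3 within Syn3; these 3 were looked up after their values were seen. Timp1 had levels of 3.82, 2.86 and 4.09 in control replicates 1 to 3 and 6.10, 6.19, 6.17 and 6.24 in contusion replicates 1 to 4, with control replicate 4 left out as an outlier spot, and it rose by 2.59 ± 0.27 (adjusted p 0.000422). Timp3 rose by 0.46 ± 0.10 and Timp4 by 0.45 ± 0.14. The rise of Timp4 was not called with slide as a block (0.35, adjusted p 0.122), or without control replicate 3 (0.36, adjusted p 0.0756), control replicate 4 (0.46, adjusted p 0.0685), contusion replicate 2 (0.34, adjusted p 0.0546) or contusion replicate 3 (0.47, adjusted p 0.0621). Whether signal of the inner genes reaches a synapsin probe was not tested.

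All 4 SNARE genes fell, with a median of -0.56. Vamp1, the vesicle SNARE also called synaptobrevin-1 and the main one of the brainstem and spinal cord, showed the largest fall of the set. Its levels were 6.85, 7.01, 6.71 and 6.83 in control replicates 1 to 4 and 5.97, 5.76, 5.77 and 5.46 in contusion replicates 1 to 4, and the difference was -1.11 ± 0.12 (adjusted p 0.000267), or 46.3% of control. Vamp2, the main vesicle SNARE of the forebrain, fell by 0.58 ± 0.08. The plasma membrane SNARE Snap25 fell by 0.55 ± 0.10 on its brightest probe and by 1.05 ± 0.12 on its other probe. Syntaxin-1A, from Stx1a, had the smallest called fall, 0.26 ± 0.07 (adjusted p 0.0230). That call was lost with slide as a block (-0.19, adjusted p 0.0718), and on leaving out control replicate 2 (adjusted p 0.0628), 3 (0.0534) or 4 (0.0561) or contusion replicate 2 (0.0534) or 4 (0.0626).

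The genes that clamp and recycle SNARE complexes fell in full, 4 of 4, with a median of -0.85. Cplx1 and Cplx2 encode complexins, which hold the partly zipped complex until calcium arrives, and they fell by 0.56 ± 0.09 and 0.97 ± 0.07. Napb, the neuronal beta-SNAP adaptor, fell by 1.01 ± 0.10, and Nsf, the ATPase it recruits, by 0.74 ± 0.08. Of the vesicle Rab GTPases, which mark secretory vesicles, Rab3a fell by 0.92 ± 0.10 and Rab3c by 1.01 ± 0.11. Rab3b had levels of 2.81, 2.68, 2.67 and 2.64 in control replicates 1 to 4 and 2.63, 2.21, 2.55 and 2.35 in contusion replicates 1 to 4. Every contusion array was below the lowest control, replicate 1 only just, and the difference of -0.26 ± 0.10 was not called (adjusted p 0.0744). It was called without contusion replicate 1 (-0.33, adjusted p 0.0362), with averaged probes (-0.36, adjusted p 0.0169) and after normexp and quantile scaling (-0.26, adjusted p 0.0285).

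At the active zone 7 of 7 genes fell, with a median of -0.75. The giant scaffold proteins bassoon and piccolo, from Bsn and Pclo, fell by 0.95 ± 0.09 and 0.98 ± 0.12. The RIM genes, whose products link vesicle Rab3 to calcium channels, fell by 0.62 ± 0.15 (Rims1) and 0.93 ± 0.15 (Rims2). The Munc13 priming factors Unc13a and Unc13c fell by 0.75 ± 0.07 and 0.66 ± 0.08. Erc2, a RIM-binding scaffold, fell least, by 0.46 ± 0.11, and its contusion arrays read 3.09, 3.08, 3.08 and 2.80.

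Endocytosis and uncoating also fell as a group, 5 of 5, over the narrow range of -0.62 to -0.85. Dnm1, the dynamin that cuts vesicles from the membrane at high firing rates, fell by 0.85 ± 0.10, and Dnm3 by 0.75 ± 0.10. Amph, whose product amphiphysin brings dynamin to the vesicle neck, fell by 0.79 ± 0.18, the largest standard error of the set. Its controls spread from 5.24 to 6.02, and its contusion arrays, from 4.65 to 5.20, all lay below the lowest control, the highest of them only just. Synj1, the lipid phosphatase that helps strip clathrin, fell by 0.79 ± 0.14, and Snap91, the clathrin assembly protein AP180, by 0.62 ± 0.09.

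Most members had several probes, and the counts below include the brightest probe that already stood for each gene. The 36 genes had 101 probes, of which 100 passed the filter, and 94 of these fell and 2 rose, where 27.1% of all mRNA probes were called lower and 26.5% higher in the fit of all probes. In 29 of the 33 genes with more than 1 probe every probe fell. The exceptions were Syt4, Syn1, Rab3b and Syn3, whose 5 probes differed by -0.18 to -0.95. The median spread between the lowest and highest probe of a gene was 0.19, and beyond Syn1 and Syn3 it was widest for Bsn, -0.40 to -0.95, and Snap25.

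**Figure D2:**
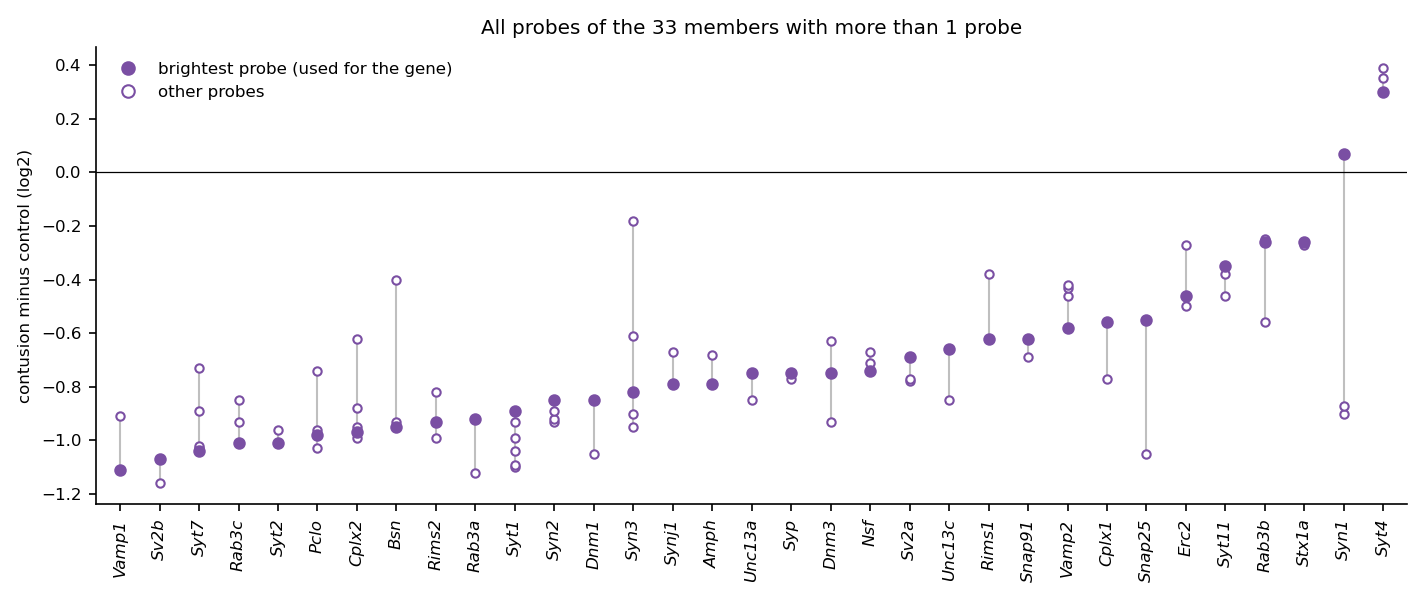
Difference of every probe (contusion minus control, log2, vertical axis) for the 33 members with more than 1 probe on the horizontal axis; filled points are the brightest probe of the gene and open points the others. Syn1 stands out, with its brightest probe at 0.07 and the others at -0.87 and -0.90, and all Syt4 probes lie above 0, on the scale of the 75th percentile of each array.

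Relative to general neuronal mRNAs, the set separated, and so did the markers used as the reference. When each array was scaled on the mean of the 25 neuronal markers in place of the 75th percentile, the median over all mRNAs moved to 0.62, with 3.69% called lower and 76.6% higher, and the members' median was -0.13. Of the 25 markers themselves, 8 were called lower and 6 higher, so calls in both directions were not particular to the vesicle genes. The mean difference of the markers is 0 on this scale by construction, so some had to lie on each side. On this scale 14 of 36 were lower: Vamp1, Sv2b, Syt7, Syt2, Rab3c, Napb, Pclo, Cplx2, Bsn, Rims2, Rab3a, Syt1, Dnm1 and Syn3. Vamp1 was the lowest at -0.49 ± 0.09 (adjusted p 0.00136), then Sv2b at -0.45 ± 0.08 and Syt7 at -0.42 ± 0.09. Another 5 were higher than the neuronal markers: Syt4 by 0.92 ± 0.09, Syn1 by 0.69 on its brightest probe, Stx1a by 0.35 (adjusted p 0.00308), Rab3b by 0.35 (adjusted p 0.0271) and Syt11 by 0.27 (adjusted p 0.0138). The other 17, among them Snap25 at 0.07 on its brightest probe (adjusted p 0.479), Syp at -0.13 (adjusted p 0.261) and Rims1, did not pass the test on this scale. On the 75th percentile scale the brightest Snap25 probe differed by -0.55 and its other probe by -1.05.

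**Figure D3:**
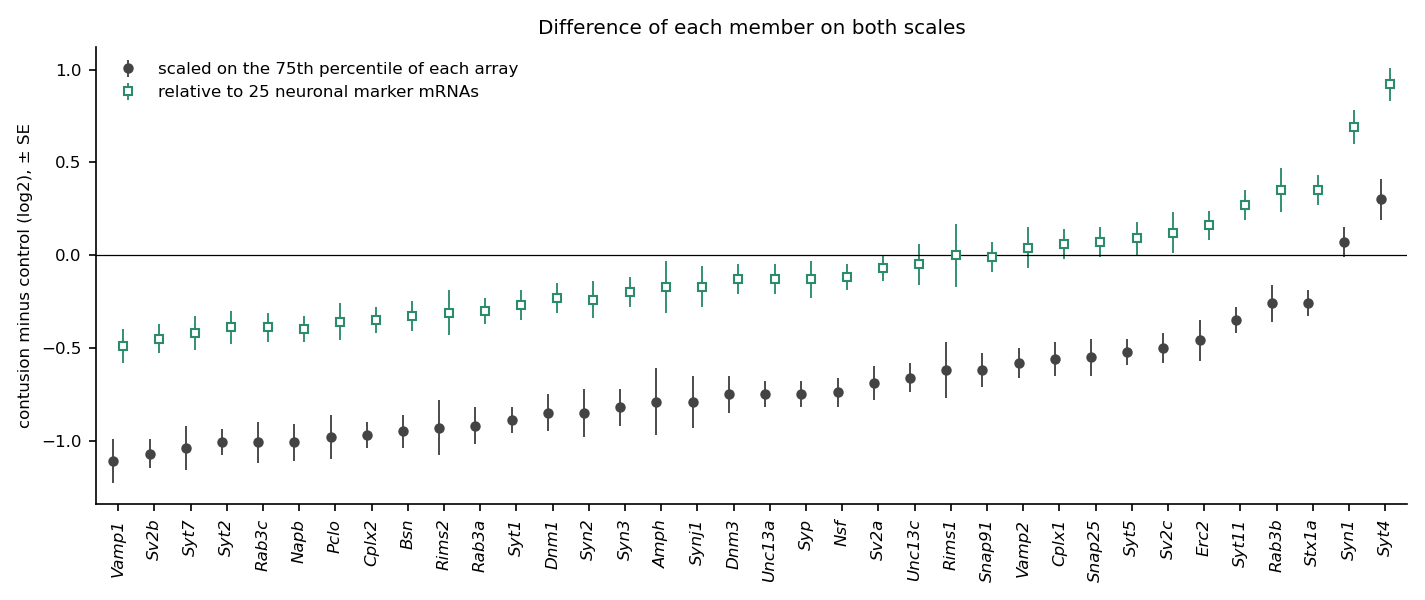
Difference of each of the 36 genes (contusion minus control, log2, ± SE, vertical axis), ordered by size along the horizontal axis, on the 75th percentile scale (filled circles) and relative to 25 neuronal marker mRNAs (open squares). The filled circles run from -1.11 for Vamp1 to 0.30 for Syt4, and the open squares straddle 0, from -0.49 to 0.92.

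Related genes that share a function were compared in their change. For each of 24 pairs the difference between both levels was taken within each array and compared between groups with a two-sided exact permutation test, whose smallest possible p with 70 arrangements is 0.0286, and p-values were adjusted over the 24 pairs. In 15 pairs the changes differed (adjusted p 0.0457 in each, all at the smallest exact p). With this test calls are possible only when at least 14 pairs reach that smallest p. With averaged probes 13 did, and none was called, though all 15 kept their sign. Of the 4 widest gaps, 3 joined a synaptic gene to a relative used by most cells, and the other was Syt1 with Syt4. Any shift of a whole array cancels in these gaps, since both genes are read on the same array.

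Snap25 and Snap23 differed most. Snap25 had levels of 8.95, 9.30, 9.02 and 9.12 in control replicates 1 to 4 and 8.50, 8.72, 8.56 and 8.41 in contusion replicates 1 to 4. Snap23, the plasma membrane SNARE of non-neuronal secretion, had 1.61, 1.80, 1.77 and 1.63 in control replicates 1 to 4 and 2.63, 2.67, 2.55 and 2.52 in contusion replicates 1 to 4. Snap23 was higher in every contusion array and rose by 0.89 ± 0.07, so the gap between the changes was 1.44 ± 0.08. Dnm1 read 7.33, 7.61, 7.42 and 7.53 in controls and 6.68, 6.81, 6.58 and 6.43 after contusion, while Dnm2, the dynamin of all cell types, read 3.60, 3.56, 3.60 and 3.56 in controls and 4.12, 4.17, 4.09 and 4.07 after contusion. Dnm2 rose by 0.53 ± 0.06, a gap of 1.38 ± 0.09.

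Snap91 read 4.78, 4.98, 4.69 and 4.96 in control replicates 1 to 4 and 4.28, 4.27, 4.30 and 4.06 in contusion replicates 1 to 4. Its widely expressed relative Picalm read 3.96, 4.02, 3.97 and 4.08 in controls and 4.26, 4.43, 4.28 and 4.38 after contusion, a rise of 0.33 ± 0.07 and a gap of 0.95 ± 0.10. Syt1, at 4.70, 4.84, 4.78 and 4.72 in controls and 3.96, 3.80, 3.93 and 3.78 after contusion, differed from Syt4 in its change by 1.19 ± 0.11. Napb changed more than Napa (gap 0.87 ± 0.06; Napa itself -0.14, adjusted p 0.235) and Synj1 more than Synj2 (gap 0.79 ± 0.16; Synj2 0.00, adjusted p 0.972). Amph and Bin1, the amphiphysin relative found also in muscle and glia, were not separated (gap 0.41 ± 0.20, exact p 0.114), and Bin1 itself fell by 0.38 ± 0.09.

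Within the neuronal families some isoforms fell more than others. Vamp1 fell more than Vamp2 by 0.53 ± 0.12 and Sv2b more than Sv2a by 0.37 ± 0.04. Cplx2 fell more than Cplx1 by 0.41 ± 0.06, but by 0.22 with averaged probes. The other Cplx1 probe differed by -0.77, within the range of the Cplx2 probes, -0.99 to -0.62. Syt1 fell more than Syt11 by 0.55 ± 0.06 and more than Syt5 by 0.37 ± 0.06, and Rab3a changed more than Rab3b by 0.65 ± 0.14. The Syn1 pairs, with gaps of 0.93 ± 0.10 from Syn2 and 0.89 ± 0.07 from Syn3, rest on its discordant probe: with averaged probes the gaps were 0.34 and 0.13. Pairs that this test did not separate were Syt1 with Syt2 (0.12 ± 0.06) and Syt7 (0.15 ± 0.11), Rab3a with Rab3c (0.09 ± 0.06), Bsn with Pclo (0.02 ± 0.12), Dnm1 with Dnm3 (-0.10 ± 0.06), Unc13a with Unc13c (-0.09 ± 0.07), Sv2a with Sv2c (-0.20 ± 0.12) and Rims1 with Rims2 (0.31 ± 0.29), each given as the first gene's difference minus the second's.

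**Figure D4:**
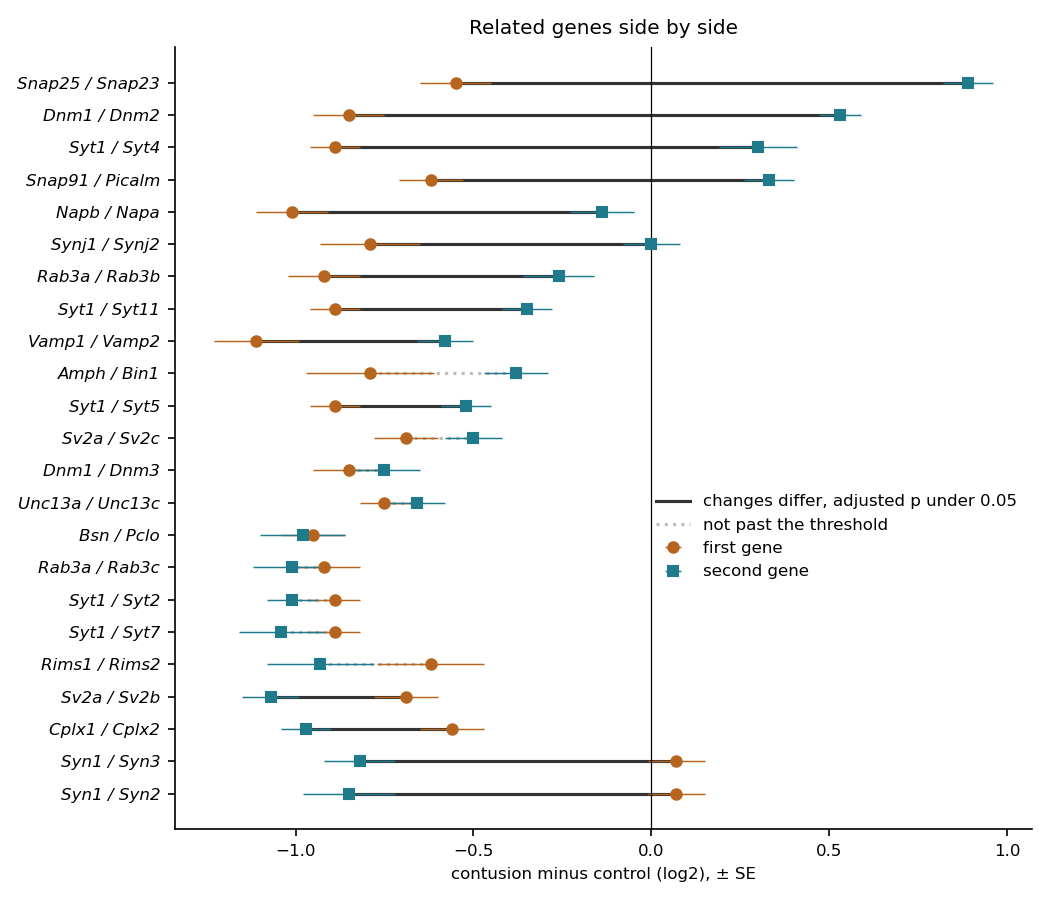
Differences (contusion minus control, log2, ± SE, horizontal axis) of both genes in 23 of the 24 related pairs (vertical axis), circles for the first gene and squares for the second. Solid lines join the 14 of these pairs whose changes differed and dotted lines the other 9. Snap23, Dnm2 and Picalm lie to the right of 0 while Snap25, Dnm1 and Snap91 lie to the left on the 75th percentile scale. Relative to neuronal markers Snap25 is at 0.07, Snap91 at -0.01 and Dnm1, still lower by limma, at -0.23 ± 0.08 (adjusted p 0.023), each on its brightest probe.

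Other genes of the pathway were counted in lists, beside 25.3% of all mRNAs called lower and 25.8% higher (3.69% and 76.6% relative to neuronal markers). Of 42 further neuronal release genes 37 fell and 2 rose, with a median of -0.66; relative to neuronal markers 10 were lower and 7 higher. The largest falls were of Lin7b, an adaptor of synaptic scaffolds (-1.49 ± 0.08), Syt3 (-1.23 ± 0.07) and the calcium sensor Doc2a (-1.18 ± 0.07), while Rab3il1, an exchange factor for Rab GTPases, rose by 1.22 ± 0.12 and Snapin by 0.20 ± 0.06, a call lost when any of the arrays other than contusion replicate 2 was left out (adjusted p 0.0501 to 0.0901), or when slide entered the fit (adjusted p 0.0544). Snapin differed by 0.03 with averaged probes (adjusted p 0.681) and by 0.10 after normexp and quantile scaling (adjusted p 0.0925). Of the 8 vesicular transmitter transporters 5 fell and 1 rose, with a median of -0.62 (relative to neuronal markers 1 lower and 2 higher). Slc32a1, which loads GABA and glycine, fell by 0.92 ± 0.14, Slc18a3, which loads acetylcholine, by 0.79 ± 0.12, and the glutamate transporter Slc17a8 by 0.77 ± 0.08 on its brightest probe but by 0.11 with averaged probes (adjusted p 0.278). Slc17a9, the ATP transporter, rose by 0.88 ± 0.08. On the receiving side 23 of 27 postsynaptic scaffold genes fell and 1 rose, with a median of -0.53 (5 lower and 9 higher relative to neuronal markers), led by Dlgap3 (-1.09 ± 0.09), Lrrtm1 (to 50.1% of control) and Iqsec3 (-0.89 ± 0.12), and Homer3 rose by 0.74 ± 0.07.

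Lists with many widely expressed genes were mixed. Over all mRNAs 25.3% fell and 25.8% rose. Relative to neuronal markers 76.6% of all mRNAs were higher, so high counts on that scale are not particular to these lists. Of 35 endocytosis and uncoating genes 15 fell and 6 rose, with a median of -0.18 (4 lower and 25 higher relative to neuronal markers). Those that fell most were the neuronal endophilin Sh3gl2 (-1.17 ± 0.09), Sncb, which encodes beta-synuclein (-1.02 ± 0.10), and Pacsin1 (-0.95 ± 0.09), and those that rose were led by Dnm2, the clathrin adaptor subunit Ap2a2 (0.45 ± 0.07 on its brightest probe, 0.15 and adjusted p 0.0730 with averaged probes) and the widely expressed endophilin Sh3gl1 (0.40 ± 0.06). Among 53 SNARE and Rab relatives listed as widely expressed, though not all are used by most cells, 9 fell and 19 rose. Their median was 0.08 (0 lower and 45 higher relative to neuronal markers, by limma). Rab27b (-0.76 ± 0.13), Vamp4 (-0.67 ± 0.10) and Napg (-0.61 ± 0.10) fell most, and Stx11, a syntaxin of immune cells (1.98 ± 0.14), Syt8 (1.89 ± 0.36) and Sytl4 (1.15 ± 0.12) rose most. Syt8 was dim in controls, at levels of -4.78 to -2.84. Of 21 proton pump genes 9 fell and 4 rose, with a median of -0.17 (1 lower and 17 higher relative to neuronal markers), and only 5 fell with slide as a block or without control replicate 2, control replicate 4 or contusion replicate 4. The neuronal subunit gene Atp6v1g2 fell by 0.89 ± 0.09, Atp6v1b2 by 0.46 ± 0.07 and Atp6v0a1 by 0.45 ± 0.06, while Tcirg1, the subunit of osteoclasts and immune cells, rose by 1.33 ± 0.15 and Atp6v0e by 1.06 ± 0.11. Atp6v0d2, a macrophage and osteoclast subunit, rose by 3.72 ± 0.30, with 3 of its 4 controls well above background, and by 1.22 after normexp and quantile scaling.

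Circular RNAs placed inside the same genes gave another readout, one that the rule for taking genes by name does not use. A circRNA forms when a downstream splice donor joins an upstream acceptor, and its array probe spans that back-splice junction. The files name circRNAs by position without a build; 98.5% of these positions lay inside a gene of the GRCm38 RefSeq table and 40.9% after a shift of 1000000 bases, and 226 tested circRNAs lay wholly inside 1 of the 36 genes and no other gene, spread over 26 genes. Of these 196 fell and 3 rose, against 25.7% of all circRNAs called lower and 16.2% higher, with a median of -0.64 against -0.05 over all circRNAs (relative to neuronal markers 27 of the 226 were lower and 42 higher, where 1.17% of all circRNAs were lower and 76.9% higher). Both slides gave a lower value in 217 of the 226. Of 162 circRNAs on the strand of their gene, 142 fell and 1 rose, with a median of -0.62. Another 5 lay on the opposite strand, and 4 of these fell, with a median of -0.67. The falls were thus not limited to the strand of the gene. For 59, of which 50 fell and 2 rose, the gene's strand was not in the sources used. No step that removes linear RNA is named in the labels' protocols.

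Syt1 shows how such probes are built and how far they repeat each other. It held 15 circRNAs with spans from 4.71 to 426.82 kb, all called, with differences from -0.81 to -1.15 around the -0.89 of the mRNA. The pair below is shown because both probes end in the same 52 of 60 bases, in capitals, and only the 8 bases in lower case, from the other side of the junction, tell the circles apart.
Syt1 circRNA 2 (difference -1.01): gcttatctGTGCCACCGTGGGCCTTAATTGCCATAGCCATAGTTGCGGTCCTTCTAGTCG
Syt1 circRNA 3 (difference -0.99): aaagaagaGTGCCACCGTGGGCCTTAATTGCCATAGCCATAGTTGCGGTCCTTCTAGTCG
The former read 2.44, 2.48, 2.52 and 2.52 in control replicates 1 to 4 and 1.54, 1.55, 1.52 and 1.32 in contusion replicates 1 to 4, and the latter 2.28, 2.32, 2.37 and 2.35 in controls and 1.40, 1.36, 1.44 and 1.16 after contusion. The values run in parallel on every array. In all, 73 of the 226 probes share a start or an end of at least 30 bases with another circRNA probe of the same gene, so the 226 are not independent, and cross-hybridisation among them or with linear mRNA was not tested.

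Across genes the circRNAs mostly fell with the mRNA, at the median often by less and in some genes by more. Rims2 held 47, of which 43 fell, with a median of -0.71 against -0.93 for the mRNA. Erc2 held 32, of which 19 fell (median -0.35, mRNA -0.46). Rims1 held 31, of which 30 fell (median -0.67, mRNA -0.62). Nsf held 22, of which 21 fell (median -0.66, mRNA -0.74). The largest falls were of a Dnm1 circRNA of 1.89 kb (-1.31 ± 0.12, adjusted p 0.000173), a Sv2b circRNA of 0.83 kb (-1.19 ± 0.10) and a Syt1 circRNA of 140.29 kb (-1.15 ± 0.14). The Dnm1 circle read 2.41, 2.32, 2.04 and 2.35 in control replicates 1 to 4 and 1.12, 1.12, 0.91 and 0.74 in contusion replicates 1 to 4. The single Syn1 circRNA fell by 0.41 ± 0.07 (adjusted p 0.00165), in the direction of the gene's overlapping probes and not of its brightest one.

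A few circRNAs lay near 0 and were not called in genes whose mRNA fell. Among them were the only Bsn circRNA (-0.05 ± 0.07, adjusted p 0.651), 1 of 2 in Sv2a (-0.09 ± 0.07, adjusted p 0.379), 1 of 3 in Sv2b (-0.09 ± 0.13, adjusted p 0.641) and 1 of 3 in Syt7 (-0.04 ± 0.12, adjusted p 0.812), named after their values were seen. A Synj1 circRNA of 1.32 kb read 0.87, 0.70, 0.67 and 0.53 in control replicates 1 to 4 and 1.00, 0.93, 1.08 and 1.05 in contusion replicates 1 to 4; it rose by 0.32 ± 0.08 (adjusted p 0.0159) while the other 7 in that gene fell, and with slide as a block it was not called (adjusted p 0.0585). Syt4 held 4 small circRNAs: 2 named on the minus strand rose, by 0.42 ± 0.08 (adjusted p 0.00361) and 0.37 ± 0.10 (adjusted p 0.0249), and of 2 named on the plus strand 1 fell by 0.63 ± 0.09 and the other differed by 0.31 ± 0.12 (adjusted p 0.0644). The rise of 0.37 was not called with slide as a block (0.33, adjusted p 0.0826), nor without control replicate 2, 3 or 4 or contusion replicate 1 or 2 (adjusted p 0.0533 to 0.0692). Both circles on the minus strand moved in the direction of the Syt4 mRNA probes.

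**Figure D5:**
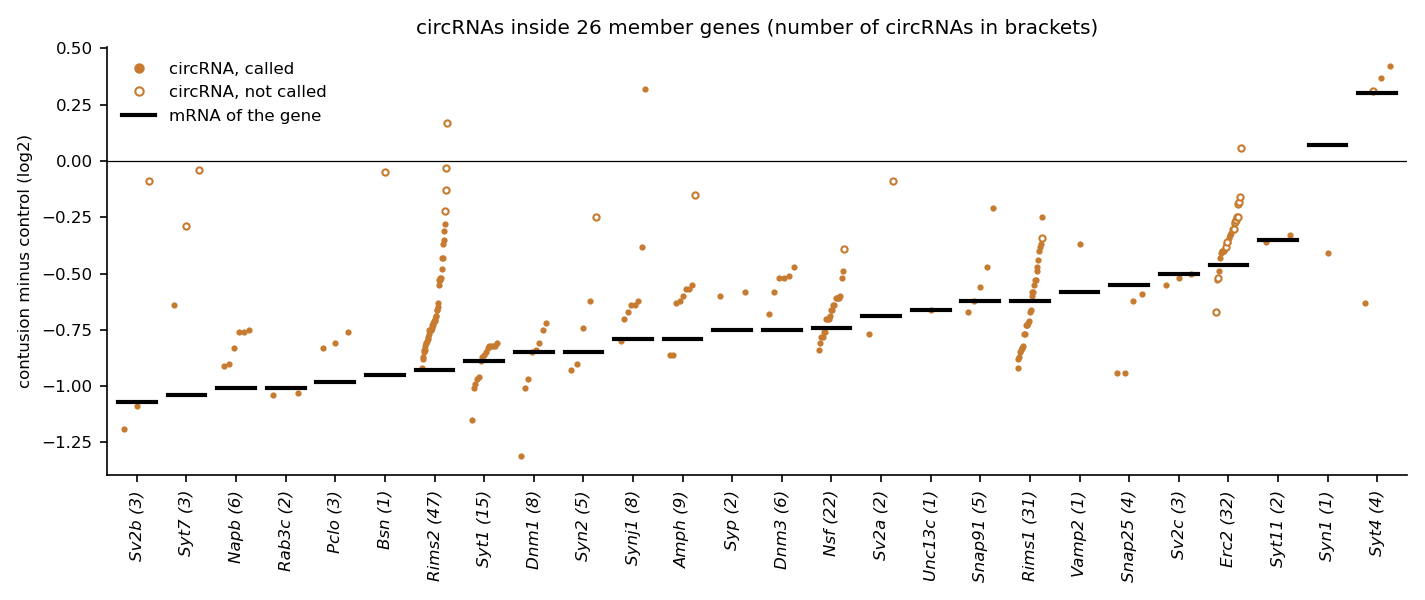
Difference (contusion minus control, log2, vertical axis) of each of the 226 circRNAs placed inside 26 of the genes (horizontal axis, number of circRNAs in brackets), filled points for called ones and open points for the rest, with the difference of the gene's mRNA as a black bar, on the 75th percentile scale. Most points lie below 0, in many genes above the bar. Bsn, Syt7 and Sv2b have points near 0 well above their bars, and 3 of 4 Syt4 circRNAs, 1 in Synj1 and, not called, 1 each in Rims2 and Erc2 lie above 0.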

How the data were processed

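The 36 members, the gene lists, the 24 pairs and the rule for named genes were chosen with earlier results of these data known. The spot values are intensities that the authors deposited as Agilent Feature Extraction output, background-subtracted and detrended within each array but not between arrays, per the file headers (software version 12.0.3.1; the submitters' processing notes name 10.7). The authors' series table holds deposited log2 values, quantile normalized between arrays to judge by their equal column medians (5.3993 to 5.3999), and served as an alternative only. Per the labels' protocols, total RNA was labelled with a whole-transcript kit.

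Processed intensities went to log2, and each array's 75th percentile among non-control probes was subtracted to give the level. Outlier spots, 6 to 53 an array, were dropped. A probe entered if its signal was well above background on 4 or more of the 8 arrays, whatever their group, and the brightest probe stood for a gene. The test was limma 3.58.1 in R 4.3.3, two-sided, with group alone in the model and p-values adjusted by Benjamini-Hochberg across 89134 mRNAs, lncRNAs and circRNAs. The fit was tested on simulated data. The arrays carried 150305 probes, 72.9% to 75.4% well above background and none saturated, and their number limits the precision. Symbols came from the RefSeq table of GRCm38.p6, which matched 99.07% of 22694 mRNA accessions, and from the array's own name for Syt5; no coordinates are printed because the headers give another build. Every member is named, with array values for the largest and smallest changes, opposite or uncalled members and the 4 widest pairs, and of each list up to 3 called genes per direction. Alternatives were other scalings and filters, averaged probes, the authors' table, slide or replicate number as a block, and arrays left out. Of the 24 pairs, 1 is not reported here.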

Additional observations from a re-analysis of the deposited data

Results flagged for a closer look

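In 7 of the groups of 4 arrays examined, 1 array stood apart from the other 3 by Dixon's criterion, which chance alone meets in about 1 of 20 groups; 7 of 218.0 groups is below that rate. Contusion replicate 4, described as day 6, was lowest for Erc2 (2.80 against 3.08 to 3.09) and for Snap91 (4.06 against 4.27 to 4.30). Control replicate 1 was highest for Atp6v0d2 (-4.02 against -5.41 to -5.27). Contusion replicate 1 was highest for Atp6v0e (6.15 against 5.78 to 5.84) and lowest for Olfml3 (6.58 against 6.69 to 6.71), and contusion replicate 2 was highest for Atp6v1b2 (6.68 against 6.46 to 6.50). The mean of the red blood cell markers was highest in contusion replicate 2, at 4.00 against 3.01 to 3.1.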

How the results depend on the processing

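The counts moved most when arrays were scaled on neuronal markers: 14 members lower and 5 higher, 10 and 7 other release genes, 1 and 2 vesicular transporters, 4 and 25 endocytosis genes, 0 and 45 SNARE and Rab relatives, 1 and 17 proton pump genes, 5 and 9 postsynaptic genes and 27 and 42 circRNAs. On that scale the sign turned for Syt5 (0.09), Syt11 (0.27), Sv2c (0.12), Snap25 (0.07), Stx1a (0.35), Vamp2 (0.04), Cplx1 (0.06), Rab3b (0.35), Erc2 (0.16), Atp6v0a1 (0.16), Atp6v1b2 (0.15), Bin1 (0.23), Napa (0.48) and Napg (0.00). Over all mRNAs, scaling on neuronal markers gave 3.69% lower and 76.6% higher. Under every other planned setting with a test 32 to 35 members fell. Syt4 made 1 member higher in the authors' table, with averaged probes and with slide as a block. Leaving out 1 array gave 32 to 34 members lower and 0 to 1 higher, 33 to 37 and 1 to 2 other release genes, 5 to 6 and 1 transporters, 14 to 16 and 4 to 6 endocytosis genes, 8 to 10 and 17 to 19 relatives, 5 to 9 and 4 to 5 proton pump genes, 21 to 24 and 1 postsynaptic genes, and 187 to 197 and 2 to 4 circRNAs. Only 1 other release gene rose after normexp and quantile scaling, with median scaling, without a filter, with slide as a block, without contusion replicates 1 and 2 together and without control replicates 1 and 3 together. Proton pump genes called lower were 5 with slide as a block and 5 without contusion replicates 1 and 2 together, and 1 circRNA rose with slide as a block. The replicate numbers do not pair the samples, since same-numbered deviations correlated at -0.235, 0.033, 0.059 and -0.173 and no control correlated best with its own number; with a replicate block 32 members fell and 0 rose, Stx1a was not called (-0.26), and 1 other release gene rose. With averaged probes Syn1 turned to -0.56 and 0 pairs were called, and the gaps of Syt1 with Syt2 (-0.02) and Syt7 (-0.06) and of Rab3a with Rab3c (-0.09) turned; after normexp and quantile scaling the gaps of Syt1 with Syt2 (-0.11) and Syt7 (-0.01) turned. Without contusion replicates 1 and 2 together, a choice made with that on the controls after seeing the data, Syn1 (-0.03), Myh1 (-0.20) and Myh4 (-0.39) turned. Synj2, at 0.00, turned in the authors' table and with median scaling (-0.01), with averaged probes (-0.18), on leaving out 1 array (range -0.06 to 0.03), and without the pairs of contusion (-0.04) or control (-0.05) arrays. With 3 arrays against 4 the smallest exact p is 0.0571, so pairs have no test there. The causes were not tested.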
